A study of Zea mays with 9 samples.

Results

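The anthocyanin pathway of maize, with chalcone synthase c2 at its head, was followed through 9 genes in the RNA of germinating seeds. They were chosen by gene ID for their role in the pathway, by a rule that holds no measured value: c2 (GRMZM2G422750), whp1 (GRMZM2G151227), chi1 (GRMZM2G155329), fht1 (GRMZM2G062396), pr1 (GRMZM2G025832), a1 (GRMZM2G026930), a2 (GRMZM2G345717), bz1 (GRMZM2G165390) and bz2 (GRMZM2G016241). The choice was made with earlier results of these data known. All 9 genes were found among the 39301 genes of the deposited table. The seeds fall into 3 groups of 3 biological replicates. NaCl+MT seeds received salt and melatonin, an indoleamine that the series title calls exogenous. NaCl seeds received salt alone, and CK seeds carry a label that is usual for an untreated control but is not explained. The labels give no inbred line, dose, time, or order of the melatonin and salt treatments, and do not say how many seeds made up a replicate. They name the seed as the tissue, without separating embryo from endosperm.

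Anthocyanins are the red and purple pigments of maize kernels, seedlings and husks. Chalcone synthase joins a phenylpropanoid unit to malonyl units and so makes the first flavonoid. Chalcone isomerase, flavanone 3-hydroxylase and flavonoid 3'-hydroxylase then shape the ring system, and these steps also feed other flavonoids. Dihydroflavonol reductase and anthocyanidin synthase lead on to the coloured compounds, which are glucosylated and moved to the vacuole. In the maize kernel a MYB protein of the c1 type and a bHLH protein of the r1 type are known to switch on these structural genes together.

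Levels are in FPKM as the authors computed them, a count of fragments divided by gene length and by the size of the library. Differences between groups are log2 fold changes of FPKM + 1 from limma, a linear model fitted to 22379 genes that reached 1 FPKM in at least 3 libraries, and p-values are 2-sided and adjusted over those genes. The added 1 draws the fold change of a gene near 0 towards 0, so ratios of mean FPKM are given beside some of them. A gene was called where the adjusted p was under 0.05. The absolute depth is unknown. The number of genes listed at 0 was highest in NaCl replicate 3, with 12558, and ran from 9986 to 10802 elsewhere. The depth of that library, read from the spacing of low values and open by a factor of 2, was 0.538 or 1.08 times that of CK replicate 1. In bulk seed RNA, more cells of a type and more RNA per cell cannot be told apart.

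On the scale of log2(FPKM + 1), the first step of the pathway carried the widest difference. By ratio of mean FPKM between NaCl+MT and NaCl, bz1 differed slightly more (6.79) than c2 (6.11, as NaCl over NaCl+MT). Chalcone synthase c2 had 5.637, 1.768 and 2.454 FPKM in the NaCl+MT libraries (replicates 1, 2 and 3), 15.946, 20.629 and 23.697 FPKM in the NaCl libraries, and 0.39, 0.637 and 0.206 FPKM in the CK libraries. The 3 groups did not overlap: every NaCl value lay above every NaCl+MT value, and every NaCl+MT value lay above every CK value. The mean was 3.29 ± 2.06 FPKM in NaCl+MT, 20.1 ± 3.90 FPKM in NaCl and 0.411 ± 0.216 FPKM in CK (SD, n = 3 each). By the mean level, c2 stood at percentile 57.2 of all genes in NaCl+MT seeds, at percentile 86.5 in NaCl seeds and at percentile 39.7 in CK seeds.

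In NaCl seeds against CK seeds, c2 rose by a log2 fold change of 3.90 (SE 0.29, 95% interval 3.25 to 4.54, limma adjusted p = 1.29e-05), and the ratio of mean levels was 48.9. This was the rise at place 16 of the 22379 genes tested. In NaCl+MT seeds against NaCl seeds c2 fell, with a log2 fold change of -2.39 (SE 0.29, 95% interval -3.03 to -1.74, limma adjusted p = 0.000432). The mean level in NaCl+MT was 0.164 times that in NaCl. Both calls held under each alternative run and without any single library. In NaCl+MT seeds against CK seeds the log2 fold change was 1.51 (SE 0.29, 95% interval 0.87 to 2.15, limma adjusted p = 0.0422), and the ratio of mean levels was 7.996. With a pseudocount of 0.1 it was 2.65 (limma adjusted p = 0.0288). That call was lost under 11 of 20 alternatives. It was lost without any 1 of the 3 NaCl+MT libraries, without NaCl replicate 2, and without any 1 of the 3 CK libraries (log2 fold change 1.14 to 1.77, limma adjusted p 0.0575 to 0.136). The comparisons share libraries, NaCl between the first and the second, CK between the first and the third, and NaCl+MT between the second and the third, so their values are not independent.

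The second chalcone synthase, whp1, is a close copy of c2 and is known for its part in the flavonoids of pollen. It had 1.227, 0.345 and 0.719 FPKM in NaCl+MT, 0.535, 2.569 and 5.617 FPKM in NaCl, and 0.073, 0.091 and 0.072 FPKM in CK. NaCl and NaCl+MT libraries all lay above the CK libraries, while NaCl and NaCl+MT overlapped, with NaCl replicate 1 below 2 of the 3 NaCl+MT libraries. The log2 fold change was 1.62 in NaCl against CK (SE 0.42, limma adjusted p = 0.0172), with a ratio of mean levels of 37.0. With a pseudocount of 0.1 it was 3.58 (limma adjusted p = 0.00522). Leaving out CK replicate 1 ended that call at a log2 fold change of 1.61 (limma adjusted p = 0.0541). For NaCl+MT against NaCl it was -0.94 (SE 0.42, limma adjusted p = 0.148), and it was -1.49 without NaCl replicate 1 (adjusted p = 0.00430), -1.29 with array weights (adjusted p = 0.00724) and -0.44 without NaCl replicate 3 (adjusted p = 0.406). For NaCl+MT against CK it was 0.68 (SE 0.42, limma adjusted p = 0.425). That SE is pooled over the 3 groups, and the SD of whp1 was 2.56 FPKM in NaCl against 0.0107 FPKM in CK. Fitted on only the 2 groups compared, the limma adjusted p was 0.0680, still no call.

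How the authors assigned reads that match both c2 and whp1 is not given in the sources used here, so the split between the copies is uncertain. Of the summed FPKM of the pair, whp1 made up 17.9%, 16.3% and 22.7% in NaCl+MT, 3.25%, 11.1% and 19.2% in NaCl, and 15.8%, 12.5% and 25.9% in CK. By the values as listed, c2 was the larger part of the pair in every library. The groups overlapped, so the share of whp1 did not separate the treatments. With both copies summed into 1 feature, an alternative chosen after seeing the data, the log2 fold change was 3.98 in NaCl against CK (limma adjusted p = 1.84e-05), -2.32 in NaCl+MT against NaCl (adjusted p = 0.000815) and 1.66 in NaCl+MT against CK (adjusted p = 0.0412).

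**Figure D1:**
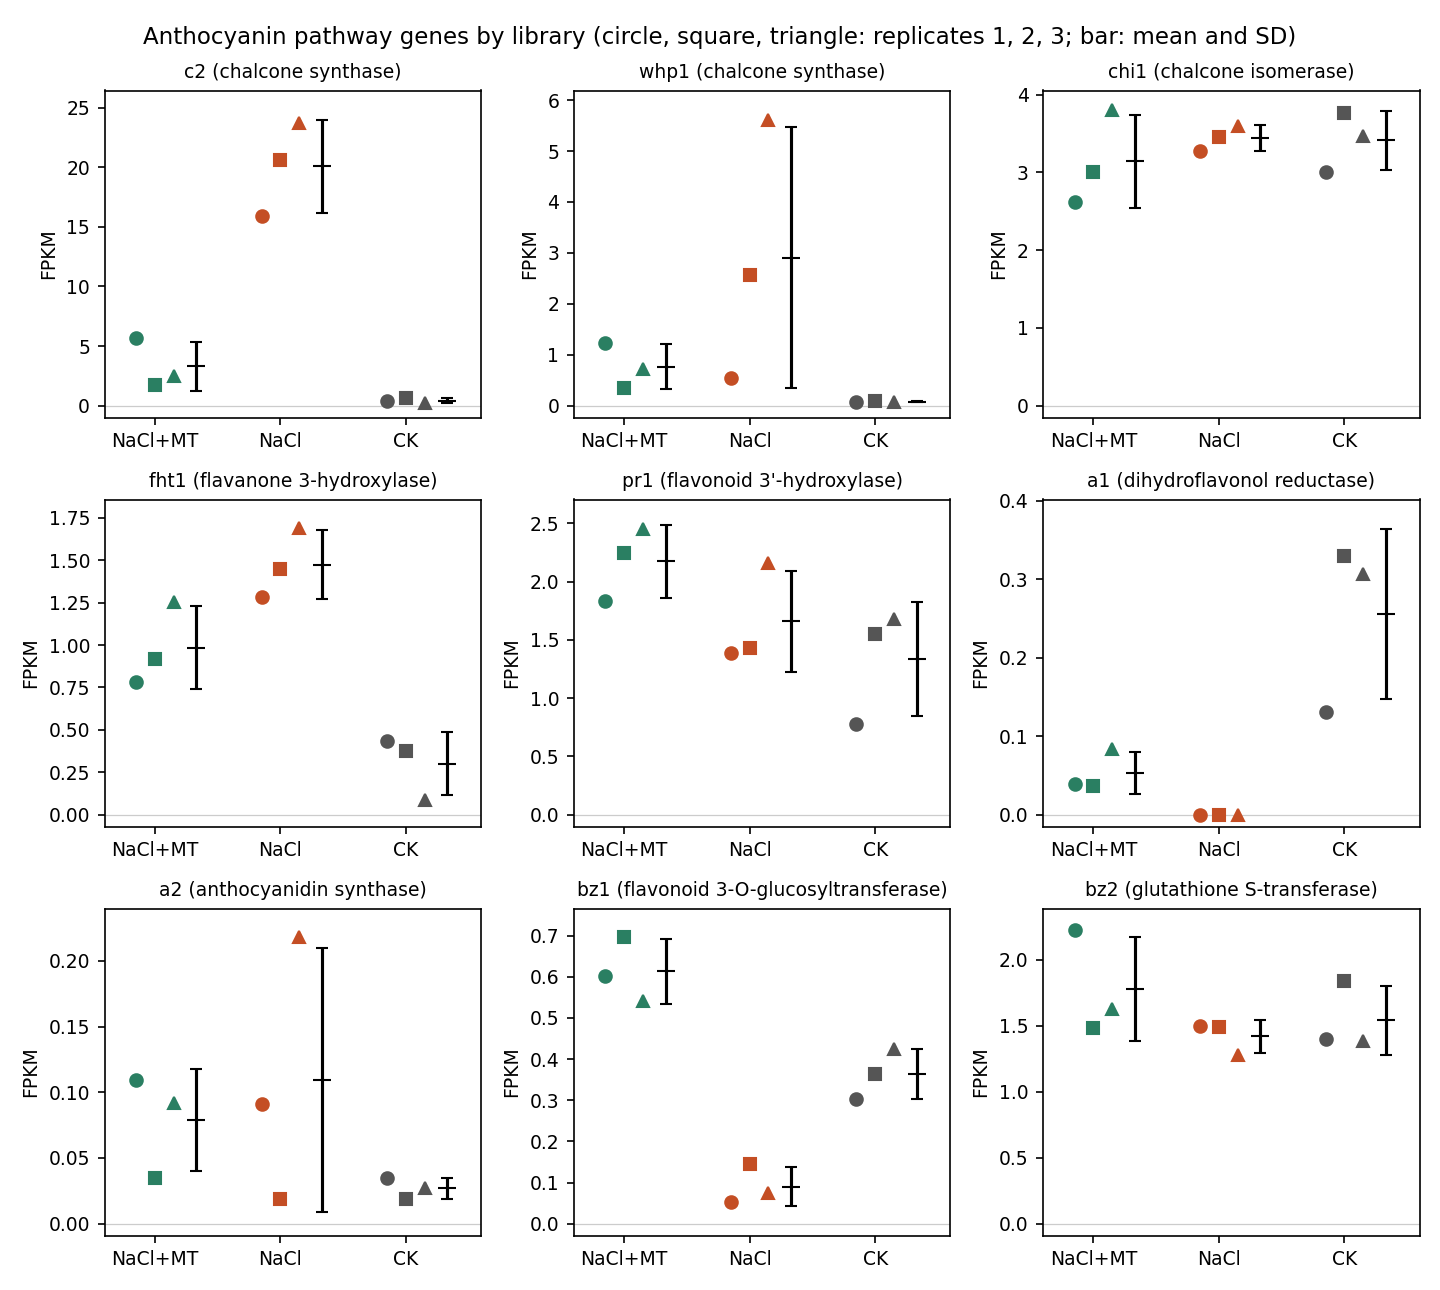
FPKM (linear axis, 1 panel per gene) of the 9 pathway genes in the NaCl+MT, NaCl and CK libraries, with symbols for replicates 1 to 3 and a bar for the mean and SD of 3 replicates (none where all 3 are 0). NaCl libraries were highest for c2 and fht1, lowest for a1 and bz1, and within the range of the other groups for chi1, whose values ran from 2.622 to 3.796 FPKM.

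The next gene, chi1, showed no such difference. This chalcone isomerase, which closes the ring of chalcones to flavanones, had 2.622, 3.004 and 3.796 FPKM in NaCl+MT, 3.269, 3.459 and 3.601 FPKM in NaCl, and 3.009, 3.764 and 3.467 FPKM in CK. The groups overlapped in every comparison. The log2 fold change was 0.01 in NaCl against CK (95% interval -0.32 to 0.35, limma adjusted p = 0.961), -0.11 in NaCl+MT against NaCl (95% interval -0.44 to 0.22, adjusted p = 0.660) and -0.10 in NaCl+MT against CK (95% interval -0.43 to 0.24, adjusted p = 0.779). The sign of the first value turned under 5 alternatives, none with a call.

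Flavanone 3-hydroxylase fht1, which makes dihydroflavonols, had its groups in the same order as c2. It had 0.781, 0.919 and 1.254 FPKM in NaCl+MT, 1.286, 1.449 and 1.69 FPKM in NaCl, and 0.435, 0.375 and 0.089 FPKM in CK. The 3 groups did not overlap, although the highest NaCl+MT value was close to the lowest NaCl value. The log2 fold change was 0.94 in NaCl against CK (SE 0.17, 95% interval 0.57 to 1.30, limma adjusted p = 0.00259), with a ratio of mean levels of 4.92. With a pseudocount of 0.1 in place of 1 it was 2.11 (limma adjusted p = 0.00531). NaCl+MT against NaCl gave -0.32 (SE 0.17, limma adjusted p = 0.210) and NaCl+MT against CK gave 0.61 (SE 0.17, limma adjusted p = 0.103), neither of them a call. With quantile normalization the first was -0.59 and passed (limma adjusted p = 0.0349), and with array weights the second was 0.67 and passed (limma adjusted p = 0.00668).

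Flavonoid 3'-hydroxylase pr1, which adds a hydroxyl group to the B ring and so shifts kernel pigment from red to purple, had 1.832, 2.248 and 2.448 FPKM in NaCl+MT, 1.391, 1.43 and 2.159 FPKM in NaCl, and 0.774, 1.55 and 1.679 FPKM in CK. NaCl+MT libraries all lay above the CK libraries, and NaCl overlapped with both other groups. The log2 fold change was 0.20 in NaCl against CK (limma adjusted p = 0.483), 0.26 in NaCl+MT against NaCl (adjusted p = 0.390) and 0.46 in NaCl+MT against CK (SE 0.20, adjusted p = 0.245). None was called, although with array weights the last value was 0.44 and passed (limma adjusted p = 0.0406).

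**Figure D2:**
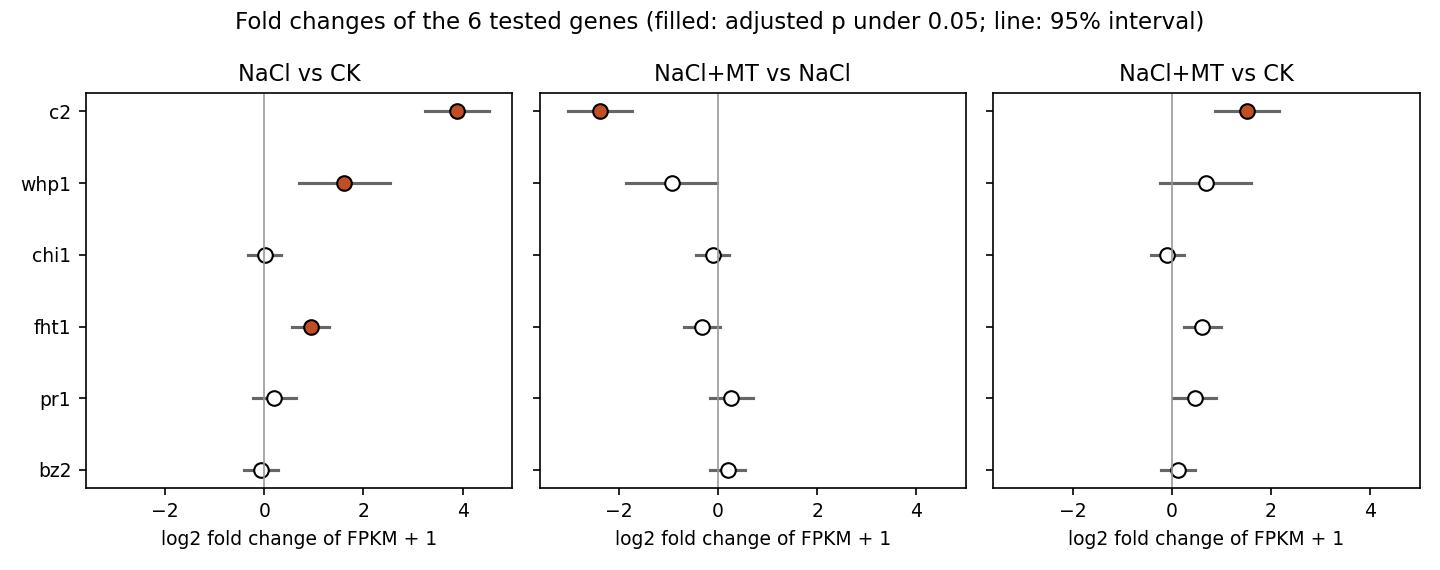
Log2 fold change of FPKM + 1 (horizontal axis) of the 6 tested genes, 1 panel per pair of groups, with the 95% interval from limma as a line and filled points for an adjusted p under 0.05. The points of c2 stand at 3.90 in NaCl against CK, -2.39 in NaCl+MT against NaCl and 1.51 in the remaining panel, while the intervals of chi1 and bz2 include 0 in every panel.

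The late genes that lead from dihydroflavonols to pigment were at low levels in all libraries. Dihydroflavonol reductase a1, which makes leucoanthocyanidins, had 0.039, 0.037 and 0.084 FPKM in NaCl+MT, was listed at 0 in all 3 NaCl libraries, and had 0.131, 0.329 and 0.307 FPKM in CK. The groups did not overlap, with CK highest and NaCl lowest. Among 3009 genes with a CK mean of 0.1 to 0.5 FPKM and values above 0 in all CK libraries, 87 (2.89%) were listed at 0 in all NaCl libraries. Anthocyanidin synthase a2, the step after a1, had 0.109, 0.035 and 0.092 FPKM in NaCl+MT, 0.091, 0.019 and 0.218 FPKM in NaCl, and 0.035, 0.019 and 0.027 FPKM in CK. These values overlapped in every comparison.

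The glucosyltransferase bz1, which adds the first sugar to anthocyanidins, had 0.601, 0.697 and 0.542 FPKM in NaCl+MT, 0.052, 0.144 and 0.075 FPKM in NaCl, and 0.302, 0.365 and 0.425 FPKM in CK. Unlike c2, it was lowest in the NaCl libraries, and NaCl+MT libraries lay above both other groups. The mean was 0.613 ± 0.0782 FPKM in NaCl+MT, 0.0903 ± 0.0479 FPKM in NaCl and 0.364 ± 0.0615 FPKM in CK (SD, n = 3 each). The mean in NaCl+MT was 6.79 times that in NaCl and 1.68 times that in CK.

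None of a1, a2 and bz1 reached 1 FPKM in any library, so they were not tested in the main fit. A limma fit of 32313 genes with no filter on low values gave bz1 a log2 fold change of 0.57 in NaCl+MT against NaCl (adjusted p = 0.00112), -0.32 in NaCl against CK (adjusted p = 0.00772) and 0.24 in NaCl+MT against CK (adjusted p = 0.127). In that fit a1 was called in NaCl against CK alone (limma adjusted p = 0.00738, against 0.459 in NaCl+MT against NaCl and 0.118 in NaCl+MT against CK). For a2 the limma adjusted p was 0.745 in NaCl+MT against NaCl, 0.260 in NaCl against CK and 0.632 in NaCl+MT against CK. Of all genes in that fit, 8.76% were called higher and 8.28% lower in NaCl against CK, 7.8% higher and 4.6% lower in NaCl+MT against NaCl, and 0.105% higher and 0.0619% lower in NaCl+MT against CK. At these levels few reads stand behind a value, and an exact permutation test of 3 against 3 libraries cannot go below p = 0.1.

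The last gene, bz2, a glutathione S-transferase needed to move anthocyanins into the vacuole, had 2.229, 1.485 and 1.627 FPKM in NaCl+MT, 1.5, 1.489 and 1.279 FPKM in NaCl, and 1.4, 1.84 and 1.384 FPKM in CK. The groups overlapped in every comparison. Its log2 fold change was -0.07 in NaCl against CK (95% interval -0.41 to 0.28, limma adjusted p = 0.788), 0.19 in NaCl+MT against NaCl (95% interval -0.15 to 0.53, adjusted p = 0.437) and 0.13 in NaCl+MT against CK (95% interval -0.22 to 0.47, adjusted p = 0.720). Each of these signs turned under at least 1 alternative.

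Counted over the pathway, 6 of the 9 genes were tested. In NaCl against CK, 3 were called higher (c2, whp1 and fht1) and 0 lower, where 13.6% of all tested genes were called higher and 12.4% lower. The comparison of NaCl+MT with NaCl had 0 called higher and 1 lower (c2), where 11.6% of all tested genes were called higher and 7.02% lower. The comparison of NaCl+MT with CK had 1 called higher (c2) and 0 lower, where 0.679% of all tested genes were called higher and 0.282% lower. At an unadjusted p under 0.05, 3 of the 6 passed in NaCl against CK, 2 in NaCl+MT against NaCl and 3 in NaCl+MT against CK. The genes c2, whp1 and fht1 reached 1 FPKM in no CK library, and so passed the filter through the NaCl and NaCl+MT libraries in which they were high. Their number among the tested genes is therefore no support for a direction of the pathway.

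The median log2 fold change of the 6 tested genes was 0.57 in NaCl against CK, where that of all tested genes was 0.03. It was -0.22 in NaCl+MT against NaCl, where that of all tested genes was 0.03, and 0.54 in NaCl+MT against CK, where that of all tested genes was 0.07. These medians are no support for a direction either, since the filter kept c2, whp1 and fht1 and removed a1 and bz1, the genes lowest in NaCl. By the overlap of libraries, the 9 genes went both ways in NaCl against CK: 3 had all NaCl values above all CK values (c2, whp1 and fht1) and 2 had them below (a1 and bz1), where 22.8% and 18.1% of all tested genes did so. Between NaCl+MT and NaCl, 2 lay above (a1 and bz1) and 2 below (c2 and fht1), where 21.2% and 15.4% of all tested genes did so. Between NaCl+MT and CK, 5 lay above (c2, whp1, fht1, pr1 and bz1) and 1 below (a1), where 21.1% and 10.0% of all tested genes did so. These shares cover the tested genes alone, while the counts include a1, a2 and bz1, which were not tested. The shares are therefore no like background for the 9 genes.

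These differences changed which step was the most abundant. In NaCl+MT the order of mean levels was c2, chi1, pr1, bz2, fht1, whp1, bz1, a2 and a1, and the means of c2 (3.29 FPKM) and chi1 (3.14 FPKM) differed by less than their SD. In NaCl the order was c2, chi1, whp1, pr1, fht1, bz2, a2, bz1 and a1, where c2 stood alone at the top and the values of whp1 spanned those of its neighbours. In CK it was chi1, bz2, pr1, c2, bz1, fht1, a1, whp1 and a2, where bz2 and pr1 overlapped, as did c2, bz1, fht1 and a1. The summed level of the 9 genes was 12.9 ± 2.27 FPKM in NaCl+MT, 31.2 ± 7.13 FPKM in NaCl and 7.725 ± 1.21 FPKM in CK (SD, n = 3 each). Of that sum c2 made up 37.4%, 16.8% and 18.9% in NaCl+MT, 66.2%, 66.1% and 61.8% in NaCl, and 5.96%, 7.10% and 2.69% in CK.

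**Figure D3:**
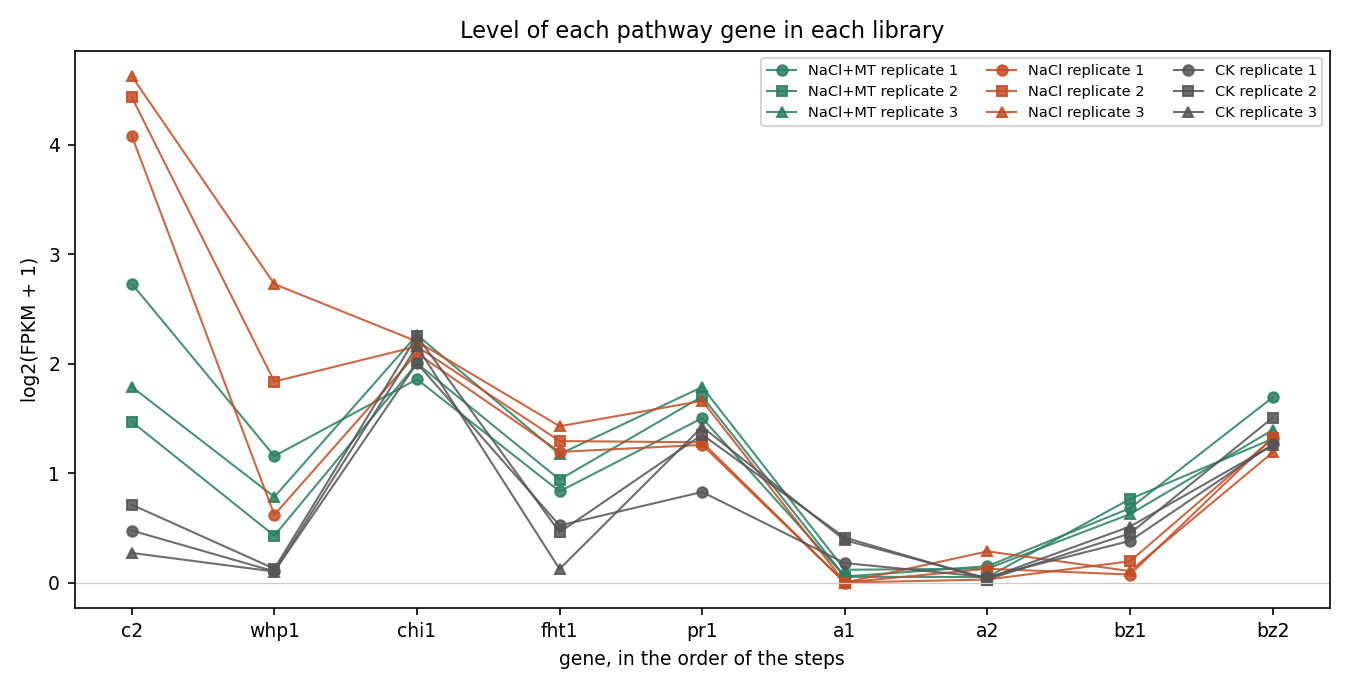
Level of each of the 9 genes in each library as log2(FPKM + 1), with the genes in the order of the steps and 1 line per library (symbols for replicates, colours for NaCl+MT, NaCl and CK). The NaCl lines are highest at c2, the lines of all groups meet at chi1, and the NaCl lines are lowest at bz1, while the NaCl+MT lines lie above the CK lines at both c2 and bz1.

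The libraries of a group also differed among themselves. Within NaCl, c2, whp1 and fht1 were each lowest in replicate 1 and highest in replicate 3, the library with the most genes listed at 0. Within NaCl+MT, both chalcone synthases were highest in replicate 1 and lowest in replicate 2, while fht1, pr1 and chi1 were highest in replicate 3.

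Of the known regulators, 10 genes were found by name and 7 were tested. In NaCl against CK, 2 were higher (c1 and pac1) and 2 lower (r1 and myb42), beside the 13.6% and 12.4% of all tested genes. Between NaCl+MT and NaCl, 2 were higher (r1 and myb42) and 1 lower (c1), beside 11.6% and 7.02%. Between NaCl+MT and CK limma called 0, with 4 at an unadjusted p under 0.05, beside 0.679% and 0.282%. The median log2 fold change of the 7 was 0.29 in NaCl against CK, 0.27 in NaCl+MT against NaCl and 0.14 in NaCl+MT against CK, beside 0.03, 0.03 and 0.07 for all tested genes. Both c1 and r1 passed the filter only through the group in which each was high. These counts and medians are therefore no support for a direction of the regulators.

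The MYB gene c1 (GRMZM2G005066), an activator of kernel anthocyanin genes, had 0.449, 0.196 and 0.444 FPKM in NaCl+MT, 1.054, 2.523 and 3.384 FPKM in NaCl, and 0.396, 0.109 and 0.495 FPKM in CK. NaCl libraries lay above all others, and NaCl+MT and CK overlapped. Its log2 fold change was 1.26 in NaCl against CK (SE 0.26, limma adjusted p = 0.00544), -1.22 in NaCl+MT against NaCl (SE 0.26, adjusted p = 0.00871) and 0.04 in NaCl+MT against CK (adjusted p = 0.961). With a pseudocount of 0.1 these values were 2.47, -2.30 and 0.17. It reached 1 FPKM in the NaCl libraries alone, and so passed the filter through the group in which it was high.

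The bHLH gene r1 (GRMZM5G822829), the known partner of c1, ran the other way. It had 0.919, 0.656 and 0.985 FPKM in NaCl+MT, was listed at 0 in all 3 NaCl libraries, and had 2.471, 1.502 and 1.014 FPKM in CK. The groups did not overlap. It was lower in NaCl than in CK (limma adjusted p = 0.000722) and higher in NaCl+MT than in NaCl (adjusted p = 0.0112, or 0.110 with quantile normalization), while NaCl+MT against CK was not called (adjusted p = 0.225). It reached 1 FPKM in the 3 CK libraries alone, and so passed the filter through the group in which it was high. Among 4628 genes with a CK mean of 1 to 3 FPKM and values above 0 in all CK libraries, 9 (0.194%) were listed at 0 in all NaCl libraries. Of the 22379 tested genes, 14 (0.0626%) were listed at 0 in all NaCl libraries and above 0 in all CK libraries, and 1 (0.00447%) the other way round. The r1 gene has close copies in the maize genome, and the sources used here do not say how reads shared between copies were assigned.

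**Figure D4:**
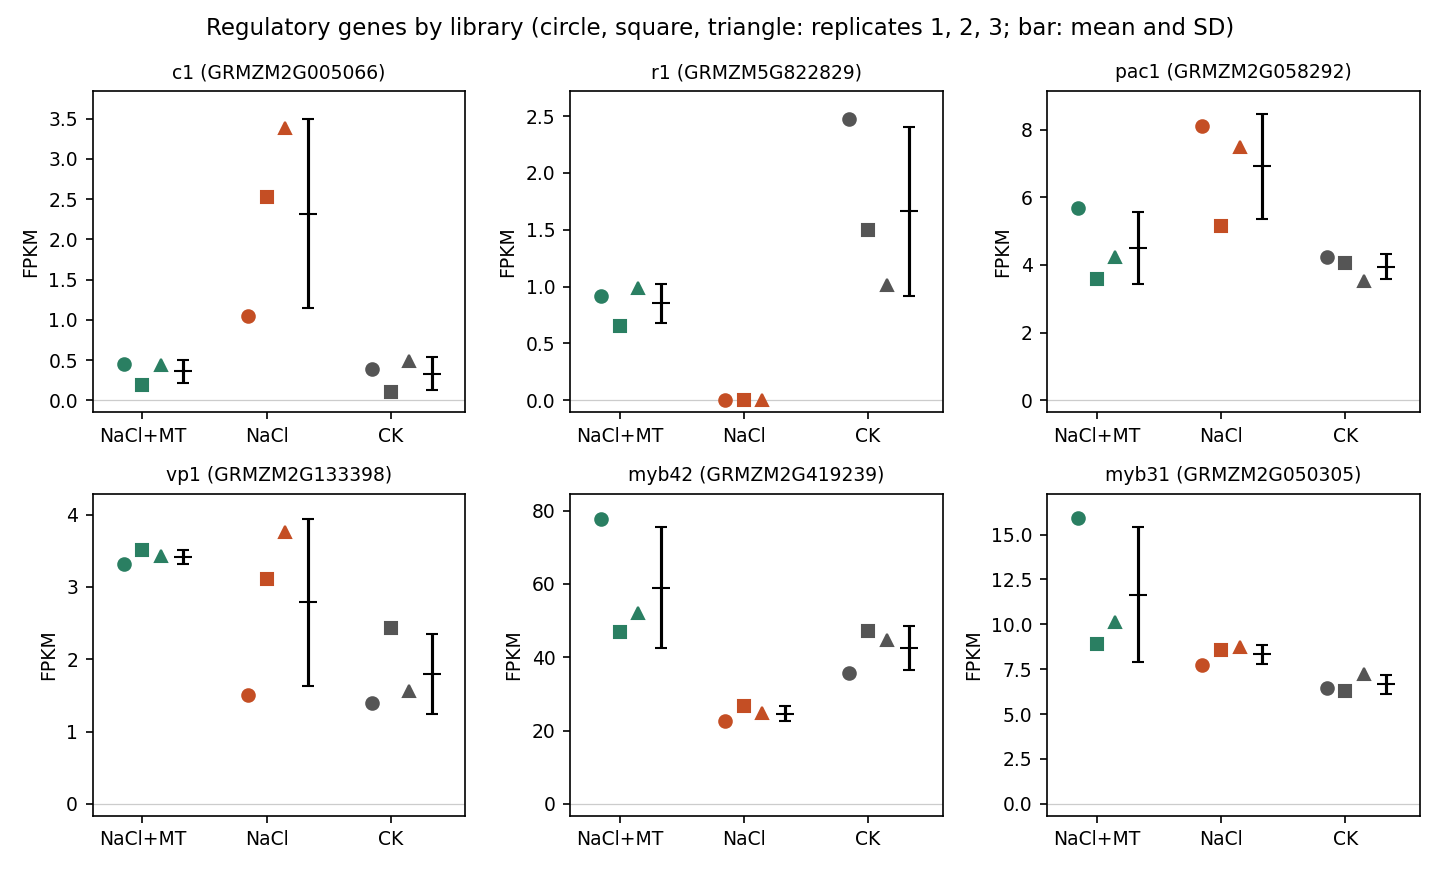
FPKM (linear axis, 1 panel per gene) of 6 regulatory genes in the NaCl+MT, NaCl and CK libraries, with symbols for replicates 1 to 3 and a bar for the mean and SD of 3 replicates (none where all 3 are 0). In NaCl, c1 stands highest at 1.054 to 3.384 FPKM, r1 lies at 0, and myb42 is lowest at 22.486 to 26.64 FPKM.

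The MYB gene myb42 (GRMZM2G419239), known as a repressor of phenylpropanoid genes, had 77.745, 46.985 and 51.968 FPKM in NaCl+MT, 22.486, 26.64 and 24.67 FPKM in NaCl, and 35.69, 47.205 and 44.722 FPKM in CK. NaCl libraries were the lowest, and NaCl+MT and CK overlapped. Its log2 fold change was 1.20 in NaCl+MT against NaCl (SE 0.19, limma adjusted p = 0.00223) and -0.76 in NaCl against CK (SE 0.19, adjusted p = 0.0165). The second call ended when CK replicate 2 (limma adjusted p = 0.0607) or CK replicate 3 (limma adjusted p = 0.0562) was left out. The WD40 gene pac1 (GRMZM2G058292), named here after its values were seen, averaged 4.51 ± 1.06 FPKM in NaCl+MT, 6.91 ± 1.55 FPKM in NaCl and 3.95 ± 0.364 FPKM in CK (SD, n = 3 each). Its log2 fold change in NaCl against CK was 0.66 (SE 0.19, limma adjusted p = 0.0286), and that call was lost under 7 of 20 alternatives. It was lost without NaCl replicate 1 or 3 (adjusted p = 0.0756 and 0.0732) and without any 1 of the CK libraries (adjusted p 0.0572 to 0.0901). A second gene with the name pac1 in RefSeq (GRMZM2G058432) averaged 55.6 ± 6.76 FPKM in NaCl+MT, 75.2 ± 11.7 FPKM in NaCl and 68.8 ± 12.1 FPKM in CK (SD, n = 3 each), with a log2 fold change of 0.13 in NaCl against CK (limma adjusted p = 0.618). Which of them is the known pac1 was not settled here. The MYB genes p1 and pl1 stayed at or under 0.083 FPKM in every library and were not tested.

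Under the names of other flavonoid genes, 7 were found and 4 tested. In NaCl against CK, 2 were called higher (MRP4 and chs1) and 0 lower. A part of these 2 in flavonoid synthesis is not settled here, so the counts and medians of this list are no result on flavonoid genes. In NaCl+MT against NaCl limma called 0, with 0 at an unadjusted p under 0.05, and in NaCl+MT against CK it called 0, with 2 at an unadjusted p under 0.05. The shares of all tested genes called are those given above. The median log2 fold change of the 4 was 0.38 in NaCl against CK, -0.14 in NaCl+MT against NaCl and 0.39 in NaCl+MT against CK, beside 0.03, 0.03 and 0.07 for all tested genes. MRP4 (GRMZM5G820122), an ABC transporter of the vacuole known for its part in storing phytic acid, averaged 16.4 ± 4.02 FPKM in NaCl+MT, 18.2 ± 2.62 FPKM in NaCl and 7.19 ± 2.56 FPKM in CK (SD, n = 3 each). Its log2 fold change was 1.28 in NaCl against CK (SE 0.25, limma adjusted p = 0.00481) and -0.17 in NaCl+MT against NaCl (SE 0.25, adjusted p = 0.700). The gene named chs1 (GRMZM6G007923), for which RefSeq also gives an unrelated symbol, had a log2 fold change of 0.40 in NaCl against CK (limma adjusted p = 0.0499), and 15 of 20 alternatives ended that call, among them leaving out any 1 library other than NaCl+MT replicate 1 (adjusted p 0.0631 to 0.123). It is named because the count is small, after its values were seen.

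The entry of the phenylpropanoid pathway, which supplies the substrate of chalcone synthase, was represented by 2 genes found by name. Both were higher in NaCl than in CK and lower in NaCl+MT than in NaCl, and in NaCl+MT against CK limma called 0, with 2 at an unadjusted p under 0.05. Their median log2 fold change was 1.42 in NaCl against CK, -0.87 in NaCl+MT against NaCl and 0.54 in NaCl+MT against CK. In NaCl against CK 13.6% of all tested genes were called higher, and in NaCl+MT against NaCl 7.02% were called lower. Phenylalanine ammonia-lyase PAL1 (GRMZM2G074604) averaged 141 ± 0.509 FPKM in NaCl+MT, 293 ± 27.0 FPKM in NaCl and 98.7 ± 15.4 FPKM in CK (SD, n = 3 each). Its log2 fold change was 1.57 in NaCl against CK (SE 0.16, limma adjusted p = 9.77e-05) and -1.04 in NaCl+MT against NaCl (SE 0.16, adjusted p = 0.00176). For the coumarate ligase 4CL (GRMZM2G075333) these values were 1.27 (SE 0.20, limma adjusted p = 0.00146) and -0.70 (SE 0.20, adjusted p = 0.0358), and the second call was lost under 8 of 20 alternatives. These included leaving out NaCl+MT replicate 2 or 3 (adjusted p = 0.133 and 0.136), NaCl replicate 1 (adjusted p = 0.0800) and CK replicate 2 or 3 (adjusted p = 0.0520 and 0.0517).

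The genes whose pattern was most like that of c2 were ranked by Pearson's r of log2(FPKM + 1) over the 9 libraries, which fall into 3 groups, so r mostly reflects the group means. Among genes with a name, KSL4 (GRMZM2G016922), a kaurene synthase-like gene, had r = 0.967 and place 71 of 22378. CPPS2 (GRMZM2G044481), a copalyl diphosphate synthase, had r = 0.962 and place 97. They were followed by OBAP1A (GRMZM2G044627, r = 0.939), the tasselseed lipoxygenase ts1 (GRMZM2G104843, r = 0.931) and the oxophytodienoate reductase opr1 (GRMZM2G106303, r = 0.902). CPPS2 had mean levels of 26.0 FPKM in NaCl+MT, 73.6 FPKM in NaCl and 11.2 FPKM in CK. Within the pathway, fht1 (r = 0.876) and whp1 (r = 0.848) were the most alike to c2, pr1 (r = 0.19), chi1 (r = 0.03) and bz2 (r = -0.11) were not, and among regulators r was 0.851 for c1 and -0.904 for r1.

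Markers of tissues within the seed were looked at in the same groups, and some of them differed. The summed level of 5 embryo genes was 47.5 to 81.3 FPKM in NaCl+MT, 76.8 to 93.9 FPKM in NaCl and 38.7 to 53.4 FPKM in CK, and all 5 were above 0 in each group. One of them, GLB1 (GRMZM2G067402), is a haemoglobin gene that shares the symbol of a globulin. By mean level the largest part of the sum was rab17 (GRMZM2G079440). It averaged 38.3 FPKM in NaCl+MT, 46.9 FPKM in NaCl and 28.6 FPKM in CK. A sum led by 1 gene is no measure of the amount of embryo. In NaCl against CK, 2 of the 4 tested were called higher, beside 13.6% of all tested genes. In NaCl+MT against NaCl 1 was called lower, beside 7.02% of all tested genes. The 9 green shoot genes summed to 2.22 to 3.29 FPKM in NaCl+MT, 0.122 to 0.794 FPKM in NaCl and 1.63 to 2.94 FPKM in CK, and 1, 2 and 1 of them were at 0 in all libraries of these groups. Only 1 of the 9 was tested, rbcS (GRMZM2G098520), which averaged 1.58 FPKM in NaCl+MT, 0.291 FPKM in NaCl and 0.862 FPKM in CK. It was called higher in NaCl+MT than in NaCl (log2 fold change 1.01, limma adjusted p = 0.0105). A sum of such low levels is no measure of the amount of green shoot. The aleurone is the outer endosperm layer, in which kernel anthocyanin can be made. The 4 genes listed for it summed to 226 to 270 FPKM in NaCl+MT, 119 to 239 FPKM in NaCl and 215 to 297 FPKM in CK. Whether they are particular to that layer was not tested. By mean level the largest part of the sum was vpp1, with 196 FPKM in NaCl+MT, 122 FPKM in NaCl and 208 FPKM in CK. Of the 4 genes, cr4 was called lower in NaCl than in CK, beside 12.4% of all tested genes. It was called higher in NaCl+MT than in NaCl, beside 11.6%.

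The 31 endosperm genes summed to 9.95 to 11.5 FPKM in NaCl+MT, 7.67 to 13.2 FPKM in NaCl and 8.22 to 14.6 FPKM in CK, with 14, 17 and 12 of them at 0 in all libraries of these groups. The 2 root genes summed to 12.5 to 15.1 FPKM in NaCl+MT, 9.90 to 14.8 FPKM in NaCl and 10.97 to 14.3 FPKM in CK. The groups overlapped for both lists and none of their tested genes was called. In NaCl against CK, levels of c2, whp1, fht1 and c1 were higher, as was the embryo sum. Those of a1, bz1 and r1 were lower, as was the green shoot sum. Neither sum measures the amount of its tissue. The part of these tissues in the results was not tested.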

How the data were processed

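RNA was sequenced from maize seeds at germination, 9 libraries in 3 groups of 3 biological replicates by the labels: NaCl+MT, NaCl and CK. Per the labels' protocols, RNA was extracted with a Tiangen kit and libraries were made with an NEB mRNA kit. The deposited values are FPKM for 39301 genes, computed by the authors; HISAT2, featureCounts, DESeq2 and the build B73 RefGen_v3 are named in the submitters' processing notes, without versions or roles. How multi-mapping reads were counted is not given in the sources used here. Read totals are unknown, so no counting interval was computed. P-values measure the spread between the 3 libraries of a group.

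Genes with at least 1 FPKM in at least 3 libraries (22379) were tested with limma 3.58.1 in R 4.3.3 on log2(FPKM + 1), with 3 group means, a mean-variance trend and Benjamini-Hochberg adjustment over these genes, at a threshold of 0.05. The fit was tested on simulated data. The genes and lists were chosen with earlier results of these data known. Gene names were matched to RefSeq (assembly Zm-B73-REFERENCE-NAM-5.0), of another build, so no coordinates or sequences are given. RefSeq gives the name of 8 of the 9 genes; pr1 is named from knowledge of the pathway. Lists were matched by RefSeq symbol or synonym. Of other pathway genes, the text names the 6 with the largest change past the threshold in NaCl against CK or NaCl+MT against NaCl, and says where it goes beyond them. Likeness to c2 was ranked over all tested genes, and the 5 most alike genes with a name are given. The fit was repeated with quantile normalization, median-ratio scaling, array weights, no trend, only the 2 groups compared, a pseudocount of 0.1 or 0.5, a filter at 5 FPKM or none, the replicate number as a block, each library left out in turn, and, added later, c2 and whp1 summed.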

Additional observations from a re-analysis of the deposited data

How the results depend on the processing

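Against 3 pathway genes called in NaCl against CK, 5 were called with no filter (3 higher and 2 lower) and 1 with a minimum of 5 FPKM, where 1 gene was tested; leaving out 1 library gave 2 to 3. Against 1 called in NaCl+MT against NaCl, 2 were called with no filter, with quantile normalization and with array weights, and leaving out 1 library gave 1 to 2, the 2 without NaCl replicate 1. Against 1 called in NaCl+MT against CK, 3 were called with array weights (c2, fht1 and pr1) and leaving out 1 library gave 0 to 1. In that comparison limma called 0 with median-ratio scaling, the replicate block, no filter, and a minimum of 5 FPKM, where 2, 3, 5 and 1 genes had an unadjusted p under 0.05. For c2 in that comparison the adjusted p was 0.0522 with a minimum of 5 FPKM, 0.0558 with median-ratio scaling and 0.0782 with the replicate block, over a range of 0.00366 to 0.136. The calls of c2 in the other comparisons kept their direction and significance under every alternative. Shares of all genes called were computed for the main fit and the fit with no filter alone. The counts under the other alternatives therefore have no background beside them.

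Same-numbered replicates did not deviate together (9 pairs, r from -0.37 to 0.15, 1 of them over 0.1), so the numbers were not taken to pair the samples; the replicate block left 3 calls in NaCl against CK, 1 in NaCl+MT against NaCl and 0 in NaCl+MT against CK. Signs that turned all belonged to values that were not called. In NaCl against CK, chi1 turned to -0.028 with median-ratio scaling, -0.0046 with quantile normalization and -0.036 with array weights, and ran from -0.055 to 0.070 with 1 library left out, while bz2 ran from -0.11 to 0.017. In NaCl+MT against NaCl, bz2 turned to -0.0056 with quantile normalization, and MRP4 ran from -0.32 to 0.020 with 1 library left out. In NaCl+MT against CK, bz2 turned to -0.027 with quantile normalization and -0.035 with array weights, and c1 to -0.12 with quantile normalization. With 1 library left out, c1 there ran from -0.090 to 0.13 and pac1 (GRMZM2G058292) from -0.0074 to 0.26. The cause was not tested. Levels under 1 FPKM rest on few reads, which limits a1, a2 and bz1 in every group. The CK levels of c2, whp1 and fht1 were also under 1 FPKM, so their ratios to CK are uncertain too.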

Other observations

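Flavonoid genes too low to be tested gave further values in the limma fit with no filter. The gene sm2 (GRMZM2G180283), known from salmon silks for its part in making maysin, averaged 0.545 ± 0.0348 FPKM in NaCl+MT, 0.192 ± 0.0350 FPKM in NaCl and 0.701 ± 0.195 FPKM in CK (SD, n = 3 each). Its NaCl values lay below all others (limma adjusted p = 0.0207 for NaCl+MT against NaCl and 0.00449 for NaCl against CK). The glucosyltransferase gene UGT708A6 (GRMZM2G162783), which makes C-glucosides of flavanones, had 0.117, 0.131 and 0.254 FPKM in NaCl+MT, was listed at 0 in all 3 NaCl libraries, and had 0.245, 0.198 and 0.192 FPKM in CK (limma adjusted p = 0.0182 for NaCl+MT against NaCl and 0.00551 for NaCl against CK). The reductase gene dfr1 (GRMZM2G004683) averaged 0.977 ± 0.321 FPKM in NaCl+MT, 0.304 ± 0.295 FPKM in NaCl and 0.555 ± 0.0937 FPKM in CK (SD, n = 3 each), with a limma adjusted p of 0.0515 for NaCl+MT against NaCl and 0.309 for NaCl against CK. These genes were named after their values were seen.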
